A study of Mus musculus with 21 samples.

Results

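The 29 genes described here belong to GABA signalling. The 17 interneuron identity genes are those of GABA synthesis and vesicular loading (Gad1, Gad2, Slc32a1), the subclass markers Pvalb, Sst, Vip, Lamp5, Npy and Reln, and the lineage genes Erbb4, Dlx1, Dlx6os1, Lhx6, Adarb2, Sox6, Maf and Nxph1. The other 12, called receptor genes here, are the GABA-A receptor subunits Gabra2, Gabra3, Gabra4, Gabra5, Gabrb1, Gabrb2, Gabrg1, Gabrg3 and Gabrd, the GABA-B receptor subunits Gabbr1 and Gabbr2, and Gphn, the gephyrin scaffold of inhibitory synapses. Genes were found by symbol in 2 tables of levels, of 39008 features in mouse nuclei and 31553 in Neuro2a cells. All 29 were measured and tested in nuclei, and 18 had values in both systems. The other 11 (Pvalb, Sst, Erbb4, Dlx6os1, Maf, Nxph1, Gabra3, Gabrb2, Gabrg1, Gabrg3 and Gabbr2) were not analysed here in Neuro2a.

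The study asked what CRISPR activation of Scn2a, the gene of the sodium channel Nav1.2, does to transcripts in the brain of Scn2a+/- mice and in a cell line. In CRISPR activation a Cas9 without cutting activity, here sadCas9 fused to the activator VP64, is led to a promoter by a guide RNA. PolyA RNA was sequenced from NeuN-sorted nuclei of 200 mg of cortex in 3 groups of 3 mice on a C57BL/6J background. Het CRISPRa mice were Scn2a+/- and received 500 nL of rAAV with sadCas9-VP64 and an Scn2a guide RNA into the medial prefrontal cortex 4 weeks before use, Het mice were Scn2a+/-, and WT mice were wild type. The labels give neither the age nor the sex of the mice and do not say whether Het and WT mice had an injection. Neuro2a, a mouse neuroblastoma line, was transfected in 6 CRISPRa cultures with 750 ng of sadCas9-VP64 plasmid and as much guide RNA plasmid, and in 6 VP64-only cultures without the guide RNA plasmid. Replicates 1 to 3 of both Neuro2a groups belong to library set 7 and replicates 4 to 6 to library set 8.

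GABA is made from glutamate by the glutamate decarboxylases GAD67 (Gad1) and GAD65 (Gad2) and loaded into vesicles by the transporter VGAT (Slc32a1). In cortex this is done by interneurons, which are a minority of the neurons and arise from the medial ganglionic eminence (Lhx6, Sox6, Maf; Pvalb and Sst cells) and the caudal ganglionic eminence (Adarb2; Vip and many Lamp5 and Reln cells). Striatal projection neurons are GABAergic too and use the same 3 genes. The receptors are found on excitatory neurons as well as on interneurons. GABA-A receptors are chloride channels of 5 subunits, and GABA-B receptors are G protein-coupled dimers of the products of Gabbr1 and Gabbr2.

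Levels are CPM, a gene's reads per M reads of its library (M, 1e+06), as the authors deposited them. The depth estimated from the value of 1 read was 15.5 to 20.1 M reads in the libraries of nuclei and 15.5 to 21.0 M in Neuro2a. A change is a difference on the scale of log2(CPM + 0.5), which understates changes of low genes. Its SE came from a limma fit with p-values adjusted by Benjamini-Hochberg over all genes compared, and a gene passed when its adjusted p was under 0.05. Scn2a itself was at 258 to 291 CPM in Het CRISPRa, 203 to 260 CPM in Het and 230 to 266 CPM in WT nuclei, so that Het overlapped WT, and at 4.09 to 5.33 CPM in CRISPRa against 2.84 to 3.46 CPM in VP64-only Neuro2a cells. Slc17a7, the vesicular glutamate transporter of cortical excitatory neurons, was at 895 to 1066 CPM over the 9 libraries of nuclei. Marker sums of astrocytes (10 genes) ranged over 280 to 301 CPM in Het CRISPRa, 262 to 313 CPM in Het and 272 to 309 CPM in WT nuclei. The sum of 7 vascular markers was 4.02 to 4.65 CPM in Het CRISPRa, 5.67 to 7.33 CPM in Het and 3.64 to 5.62 CPM in WT, higher in each Het library than in the other 6 libraries, and its part in the results was not tested. Where nothing says that samples are separate cultures, p-values measure only how these samples spread, in part perhaps for technical reasons.

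The windows of 250 bases before the annotated start are shown for the 3 genes of inhibitory signalling that passed in Neuro2a and have a single start window, and for the 3 genes of GABA synthesis and loading, whose levels moved together across the nuclei. They are RefSeq sequences of GRCm38.p6, found by symbol and all on the plus strand, and 27 of the 29 genes matched. Npy is at chr6:49822460-49822709, Gabbr1 at chr17:37045716-37045965, Gphn at chr12:78226405-78226654, Gad1 at chr2:70561879-70562128, Gad2 at chr2:22622077-22622326 and Slc32a1 at chr2:158610508-158610757. Capitals mark GGGCGG (the GC box), TGACG (part of the cyclic AMP response element) and TAATTA (a homeodomain core of the Dlx kind), read on both strands.
Npy: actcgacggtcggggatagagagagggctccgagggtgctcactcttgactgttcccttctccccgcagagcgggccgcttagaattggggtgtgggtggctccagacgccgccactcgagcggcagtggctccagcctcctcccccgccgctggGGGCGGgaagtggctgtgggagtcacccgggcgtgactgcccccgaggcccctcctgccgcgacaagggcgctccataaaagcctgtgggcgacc
Gabbr1: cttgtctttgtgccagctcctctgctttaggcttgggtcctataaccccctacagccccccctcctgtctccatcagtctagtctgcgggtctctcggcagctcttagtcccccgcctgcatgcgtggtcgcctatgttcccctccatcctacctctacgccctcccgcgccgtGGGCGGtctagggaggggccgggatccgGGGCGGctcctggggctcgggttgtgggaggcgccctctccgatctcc
Gphn: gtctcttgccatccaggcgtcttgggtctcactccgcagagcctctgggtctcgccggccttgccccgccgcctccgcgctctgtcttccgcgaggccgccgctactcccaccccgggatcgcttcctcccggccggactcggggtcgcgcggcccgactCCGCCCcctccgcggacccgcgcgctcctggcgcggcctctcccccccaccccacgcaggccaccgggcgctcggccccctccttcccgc
Gad1: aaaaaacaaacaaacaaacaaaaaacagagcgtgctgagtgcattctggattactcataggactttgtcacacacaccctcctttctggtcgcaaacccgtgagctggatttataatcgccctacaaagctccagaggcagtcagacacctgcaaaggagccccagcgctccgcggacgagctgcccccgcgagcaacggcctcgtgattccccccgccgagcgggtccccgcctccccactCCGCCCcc
Gad2: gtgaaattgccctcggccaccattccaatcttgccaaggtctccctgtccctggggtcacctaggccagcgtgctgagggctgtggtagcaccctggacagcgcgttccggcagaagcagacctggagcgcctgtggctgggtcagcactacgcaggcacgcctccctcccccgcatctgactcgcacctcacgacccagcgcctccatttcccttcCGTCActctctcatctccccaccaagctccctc
Slc32a1: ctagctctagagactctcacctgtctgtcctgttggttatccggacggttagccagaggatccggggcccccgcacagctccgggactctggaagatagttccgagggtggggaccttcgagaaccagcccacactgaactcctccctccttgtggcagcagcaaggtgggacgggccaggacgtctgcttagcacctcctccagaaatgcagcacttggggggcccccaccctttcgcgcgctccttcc
GGGCGG stands once before Npy, Gphn and Gad1 and 2 times before Gabbr1, and TGACG once before Gad2, while the window of Slc32a1 holds none of the 3 motifs. Over all 32851 such windows 32.7% hold GGGCGG, 17.8% TGACG and 4.84% TAATTA. Of the 41 windows of the genes described here, 15, 5 and 4 hold them in that order. These matches describe letters and not binding.

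In the sorted nuclei, none of the 29 genes passed in any of the 3 comparisons of groups. Het minus WT had 0 calls among all 18967 genes tested (0%), and 951 genes (5.01%) had an unadjusted p under 0.05. Het CRISPRa minus Het had 8 calls (0.0422%) and Het CRISPRa minus WT had 1 (0.00527%). Each group of mice enters 2 of these comparisons, so they share libraries. In bulk nuclei, fewer cells of a type and less RNA per cell cannot be told apart.

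**Figure D1:**
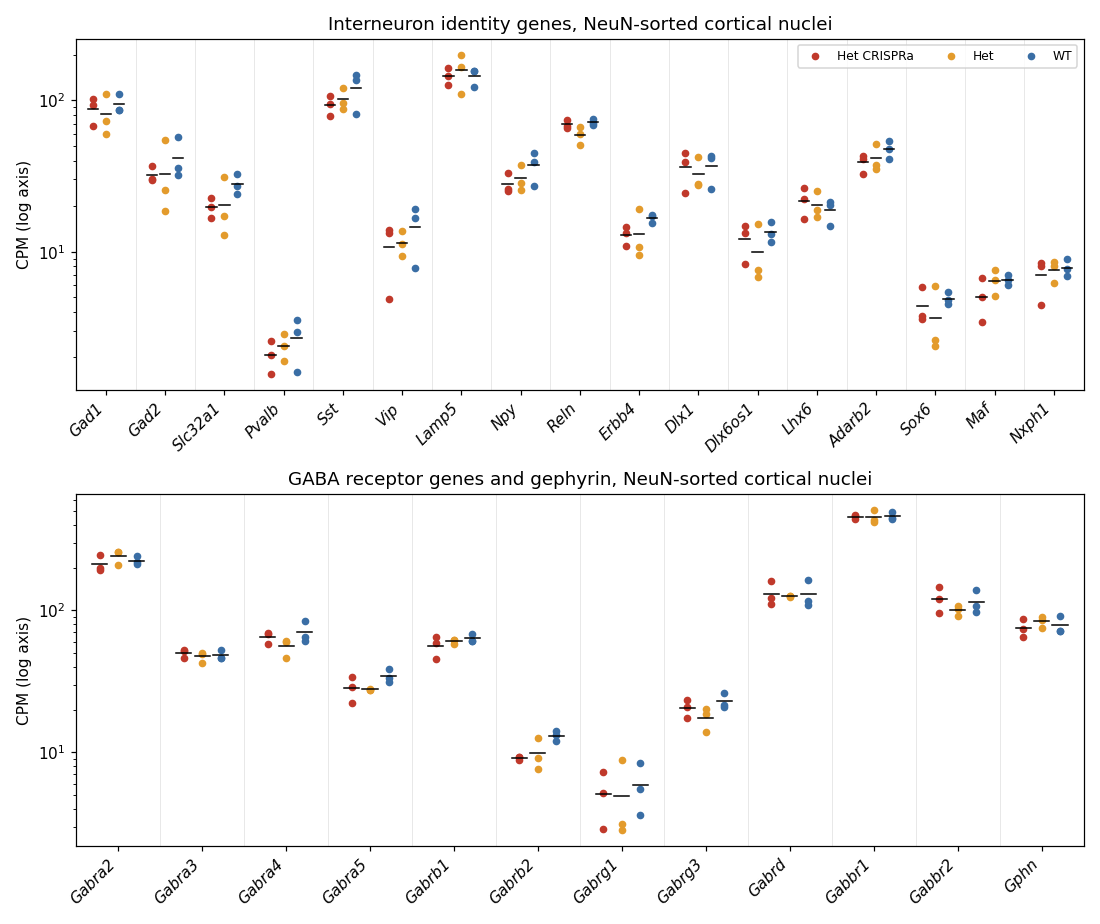
Levels of the 17 interneuron identity genes (upper panel) and 12 receptor genes (lower panel) in NeuN-sorted cortical nuclei, in CPM on log axes. Each point is 1 library, in the order Het CRISPRa, Het, WT from left to right within a gene, and the bar is the mean of 3; Gabrb2 is the one receptor gene whose 3 Het CRISPRa points, at 8.80 to 9.25 CPM, all lie under its 3 WT points, at 12.0 to 14.0 CPM.

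The genes of GABA synthesis and loading overlapped between Het and WT nuclei, and their widest spread was within Het. Gad1 was at 93.1, 67.2 and 101 CPM in Het CRISPRa, 59.9, 73.0 and 109.7 CPM in Het and 86.8, 86.9 and 110.1 CPM in WT nuclei. Gad2 was at 36.5, 29.6 and 30.2 CPM in Het CRISPRa, 18.4, 25.6 and 54.4 CPM in Het and 35.8, 32.2 and 56.8 CPM in WT. The third Het library and the third WT library were the highest for both genes, and the first Het library was the lowest. Slc32a1 was at 22.5, 16.6 and 19.8 CPM in Het CRISPRa, 12.9, 17.2 and 31.3 CPM in Het and 24.1, 27.0 and 32.7 CPM in WT. Its Het CRISPRa libraries all lay under its WT libraries, with a log2 change of -0.50 ± 0.26 (SE) that did not pass (adjusted p = 1.00 by limma). The exact two-sided permutation test gave p = 0.1, the smallest that 3 against 3 can give.

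Among the subclass markers, the neuropeptide gene Sst was at 107, 78.5 and 95.0 CPM in Het CRISPRa, 88.2, 96.0 and 120.4 CPM in Het and 147, 137 and 80.6 CPM in WT nuclei. Vip, another neuropeptide gene, was at 13.2, 4.84 and 13.9 CPM in Het CRISPRa, 11.3, 9.33 and 13.8 CPM in Het and 19.0, 16.6 and 7.79 CPM in WT. The third WT library, which was among the highest for Gad1, Gad2 and Slc32a1, was the lowest WT library for Sst and Vip and the lowest of all 9 for Lhx6, at 14.7 CPM. Pvalb, a calcium-binding protein of fast-spiking cells, stayed between 1.55 and 3.52 CPM in every library. Npy was at 25.1 to 33.3 CPM in Het CRISPRa, 25.7 to 37.5 CPM in Het and 27.3 to 44.8 CPM in WT. Lamp5, which marks neurogliaform cells and is also made by excitatory neurons, was at 145, 164 and 126 CPM in Het CRISPRa, 199.8, 166 and 111 CPM in Het and 157, 157 and 122 CPM in WT. Its order over the Het libraries was the reverse of that of Gad1.

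The lineage genes overlapped between Het and WT throughout. Dlx1, a homeodomain factor of interneuron precursors, was at 24.5 to 44.6 CPM in Het CRISPRa, 27.4 to 42.2 CPM in Het and 26.0 to 42.6 CPM in WT nuclei. Adarb2, a marker of cells from the caudal eminence, was at 32.5 to 42.9 CPM in Het CRISPRa, 35.0 to 51.8 CPM in Het and 40.7 to 53.6 CPM in WT. Dlx6os1, a long noncoding RNA of the Dlx5 and Dlx6 locus, was at 8.25 to 14.7 CPM in Het CRISPRa, 6.78 to 15.3 CPM in Het and 11.7 to 15.7 CPM in WT. The sources used here do not state the strand setting of the counts, so reads of Dlx6os1 and its antisense partner Dlx6 cannot be told apart. The other low genes were the transcription factors Sox6 and Maf and the secreted ligand Nxph1. Sox6 was at 3.57 to 5.80 CPM in Het CRISPRa, 2.37 to 5.92 CPM in Het and 4.51 to 5.40 CPM in WT. Maf was at 3.41 to 6.66 CPM in Het CRISPRa, 5.07 to 7.53 CPM in Het and 5.98 to 6.98 CPM in WT. Nxph1 was at 4.46 to 8.42 CPM in Het CRISPRa, 6.17 to 8.60 CPM in Het and 6.86 to 8.92 CPM in WT.

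Reln, which encodes the secreted protein reelin, was the one identity gene whose Het libraries all lay under its WT libraries. It was at 68.0, 65.5 and 74.4 CPM in Het CRISPRa nuclei, a level that overlaps both other groups. In Het it was at 59.9, 51.1 and 66.9 CPM, against 70.8, 75.5 and 68.6 CPM in WT nuclei, a log2 change of -0.28 ± 0.11 (SE) with an unadjusted limma p of 0.0314 and an adjusted p of 0.875. Without Het replicate 2 the Reln value was -0.18. Groups that do not overlap with Het lower made up 7.3% of all genes. Over the 17 identity genes, the median log2 change of Het minus WT was -0.25, with 15 below 0 and a range of -0.53 (Slc32a1) to 0.11 (Lhx6), against a median of -0.05 over all genes, of which 39.7% were above 0. The 12 striatal markers had a median of -0.31 in the same comparison, with 1 above 0, and their part in the identity genes' values was not tested beyond the covariate fits. The identity median was -0.21 with the striatal markers as a covariate, -0.12 with Gad1, Gad2 and Slc32a1 and -0.10 with Lhx6, Adarb2, Erbb4 and Nxph1, and the last 2 measures are made of identity genes.

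For Het CRISPRa minus Het, the median of the identity genes was 0.03, with 9 above and 8 below 0 and a range of -0.34 (Maf, a transcription factor of medial eminence cells) to 0.33 (Dlx6os1), against 0.04 over all genes. Of all genes, 56.8% were above 0 in that comparison. No identity gene had separate groups there, against 9.98% of all genes in either direction, and none had an unadjusted p under 0.05, against 5.25%. For Het CRISPRa minus WT the median was -0.28, with 15 of 17 below 0, against -0.02 over all genes, of which 45.3% were above 0. It shares its WT libraries with Het minus WT. Slc32a1 and Erbb4, the neuregulin receptor of interneurons, had all Het CRISPRa libraries under all WT libraries (4.46% of all genes did). Erbb4 was at 13.2, 10.9 and 14.6 CPM in Het CRISPRa, 9.48, 10.8 and 19.2 CPM in Het and 15.5, 17.1 and 17.4 CPM in WT, and its Het CRISPRa minus WT change of -0.37 did not pass (adjusted p = 1.00 by limma).

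**Figure D2:**
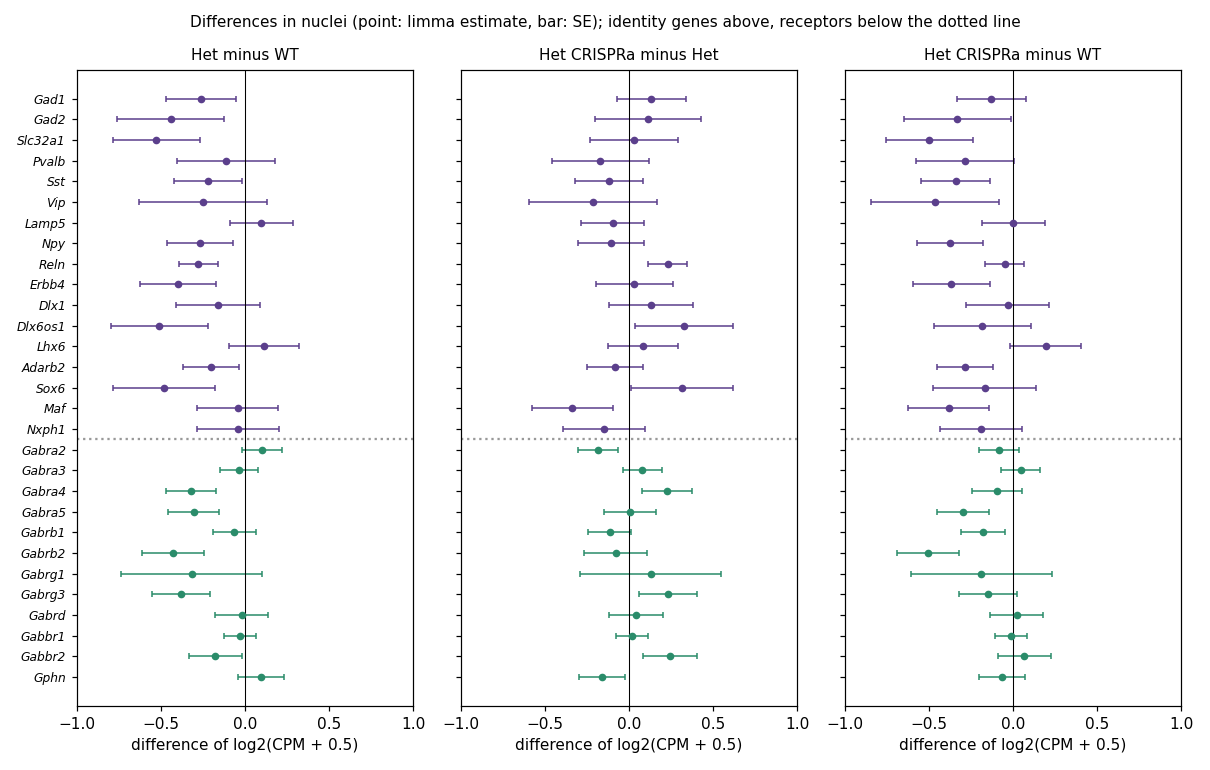
Differences of log2(CPM + 0.5) between groups of nuclei for the 29 genes, one panel per comparison, with identity genes above the dotted line and receptor genes below it. Points are limma estimates and bars the SE; none passed an adjusted p of 0.05. The panels share libraries, so they are not independent of each other.

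Among the GABA-A receptor genes, Gabrb2 had the lowest estimate in both comparisons with WT. It encodes the beta 2 subunit, part of the most common receptor with the alpha 1 and gamma 2 subunits. Gabrb2 was at 9.25, 8.80 and 9.20 CPM in Het CRISPRa, 9.19, 7.69 and 12.6 CPM in Het and 12.0, 14.0 and 13.3 CPM in WT nuclei. Its Het CRISPRa level was 9.08 ± 0.244 CPM against 13.1 ± 1.01 CPM in WT (SD, n = 3 each), and the 2 groups did not overlap. Het CRISPRa lay under WT without overlap in 4.46% of all genes. The log2 change of -0.51 ± 0.19 (SE) had an unadjusted limma p of 0.0177 and an adjusted p of 1.00, while 1.77% of all genes had an unadjusted p under 0.05 in that comparison. Het minus WT gave -0.43 ± 0.19 for Gabrb2 (unadjusted p = 0.0393 and adjusted p = 0.875 by limma), with 1 Het library inside the WT range. That value was -0.27 without Het replicate 2 and -0.28 with Gad1, Gad2 and Slc32a1 as a covariate.

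Gabra5, the alpha 5 subunit of extrasynaptic receptors, was at 28.7, 33.9 and 22.2 CPM in Het CRISPRa, 27.6, 27.7 and 27.9 CPM in Het and 33.5, 38.8 and 31.2 CPM in WT nuclei. Its Het libraries lay close together and all under WT, while its Het CRISPRa libraries spread on both sides of the Het level. Gabrg3, a gamma subunit, was at 23.3, 21.0 and 17.3 CPM in Het CRISPRa, 13.9, 18.7 and 20.0 CPM in Het and 20.7, 21.6 and 26.2 CPM in WT, with all Het libraries under all WT libraries. Het lay under WT without overlap in 7.3% of all genes. The exact two-sided permutation p was 0.1 for Gabra5 and for Gabrg3, the smallest that 3 against 3 can give. The changes of Het minus WT were -0.31 for Gabra5 and -0.38 for Gabrg3, each with an adjusted limma p of 0.875. The Gabrg3 value was -0.22 without Het replicate 1 and also -0.22 with Gad1, Gad2 and Slc32a1 as a covariate. Gabra4, a subunit of extrasynaptic receptors in forebrain, was at 68.1, 69.6 and 57.6 CPM in Het CRISPRa, 46.5, 60.9 and 60.0 CPM in Het and 60.4, 65.2 and 84.2 CPM in WT, so that Het and WT overlapped.

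The other receptor genes had overlapping groups in each comparison. Gabra2, a synaptic alpha subunit, was at 194 to 247 CPM in Het CRISPRa, 211 to 258 CPM in Het and 214 to 241 CPM in WT nuclei. Gabrd, the delta subunit of tonic inhibition, was at 111 to 162 CPM in Het CRISPRa, 125 to 127 CPM in Het and 109.9 to 163 CPM in WT. Gabrg1 was the most spread receptor gene relative to its level, at 2.90 to 7.25 CPM in Het CRISPRa, 2.85 to 8.85 CPM in Het and 3.64 to 8.36 CPM in WT. Gabra3 and Gabrb1 stayed within 42.7 to 53.0 CPM and 45.7 to 68.7 CPM over the 9 libraries, and no group stood apart. Both GABA-B subunits overlapped as well, with Gabbr1 at 439 to 469 CPM in Het CRISPRa, 416 to 506 CPM in Het and 438 to 493 CPM in WT. Gabbr2 was at 95.8 to 145 CPM in Het CRISPRa, 91.3 to 108 CPM in Het and 97.8 to 139 CPM in WT. The scaffold gene Gphn showed the same, at 64.5 to 87.1 CPM in Het CRISPRa, 74.9 to 90.0 CPM in Het and 71.4 to 92.0 CPM in WT.

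As a group, the 12 receptor genes had a median log2 change of -0.12 in Het minus WT, with 10 below 0 and a range of -0.43 (Gabrb2) to 0.10 (Gabra2), beside the all-gene median of -0.05. In Het CRISPRa minus Het their median was 0.03, with 8 above 0 and a range of -0.18 (Gabra2) to 0.24 (Gabbr2), beside 0.04. In Het CRISPRa minus WT it was -0.09, with 9 below 0, beside -0.02. Of all genes, 39.7%, 56.8% and 45.3% were above 0 in these 3 comparisons in that order. In the authors' deposited DESeq2 tables, likewise 0 of the 29 genes had an adjusted p under 0.05 in each comparison of nuclei. Gabrb2, Npy and Slc32a1 had an unadjusted p under 0.05 there in Het CRISPRa against WT. The share of all genes with such a p in that table was not computed.

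The other genes of inhibition gave no calls either in nuclei. Of 31 further interneuron genes, 4 further GABA receptor genes and 23 genes of inhibitory synapses and GABA metabolism, 0 passed in each of the 3 comparisons by limma. Of these lists together, 0 genes had an unadjusted p under 0.05 in Het minus WT, and 1 had in each of the other comparisons. The shares of all genes were 5.01% in Het minus WT, 5.25% in Het CRISPRa minus Het and 1.77% in Het CRISPRa minus WT.

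The share of GABAergic RNA in the nuclei was set beside the receptor genes. The summed level of Gad1, Gad2 and Slc32a1 was 152, 113 and 151 CPM in Het CRISPRa, 91.2, 116 and 195 CPM in Het and 147, 146 and 199.6 CPM in WT nuclei. This was 10.6 to 16.3% of the level of Slc17a7 in Het CRISPRa, 10.1 to 21.1% in Het and 14.6 to 21.4% in WT, both taken as CPM without correction for transcript length. The 3 groups overlapped, and the widest spread was within Het. The slope of each receptor gene on the mean log2 level of the 3 genes was then fitted over the 9 libraries with the group in the model. None of the 12 receptor genes had a slope that passed, against 823 of all genes (4.34%).

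The largest receptor slope was that of Gabrg1, at 1.10 ± 0.39 log2 units per unit (SE; adjusted p = 0.111 by limma). Gabbr1, with a slope of 0.25, had the smallest adjusted p of the receptor genes, 0.1002. Of the 12, 9 had slopes above 0, beside 52.8% of all genes. An unadjusted p under 0.05 was found for 4 of them (Gabrg1, Gabrg3, Gabbr1 and Gphn), beside 23.1% of all genes. Gabrg1 passed without the second Het CRISPRa library (1.39, adjusted p = 0.0067) or without the third (1.16, adjusted p = 0.0394). With Lhx6, Adarb2, Erbb4 and Nxph1 as the measure in place of the first 3 genes, 0 of all 18967 genes passed by limma (802 had an unadjusted p under 0.05), and 6 of the 12 receptor slopes were above 0. With either measure as a covariate, none of the 12 receptor genes passed in any comparison of groups. None of the identity genes passed either, but each measure is the mean of some of them, so for those this is no test. The Het CRISPRa minus WT value of Gabrb2 was -0.39 with the first measure and -0.43 with the second.

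**Figure D3:**
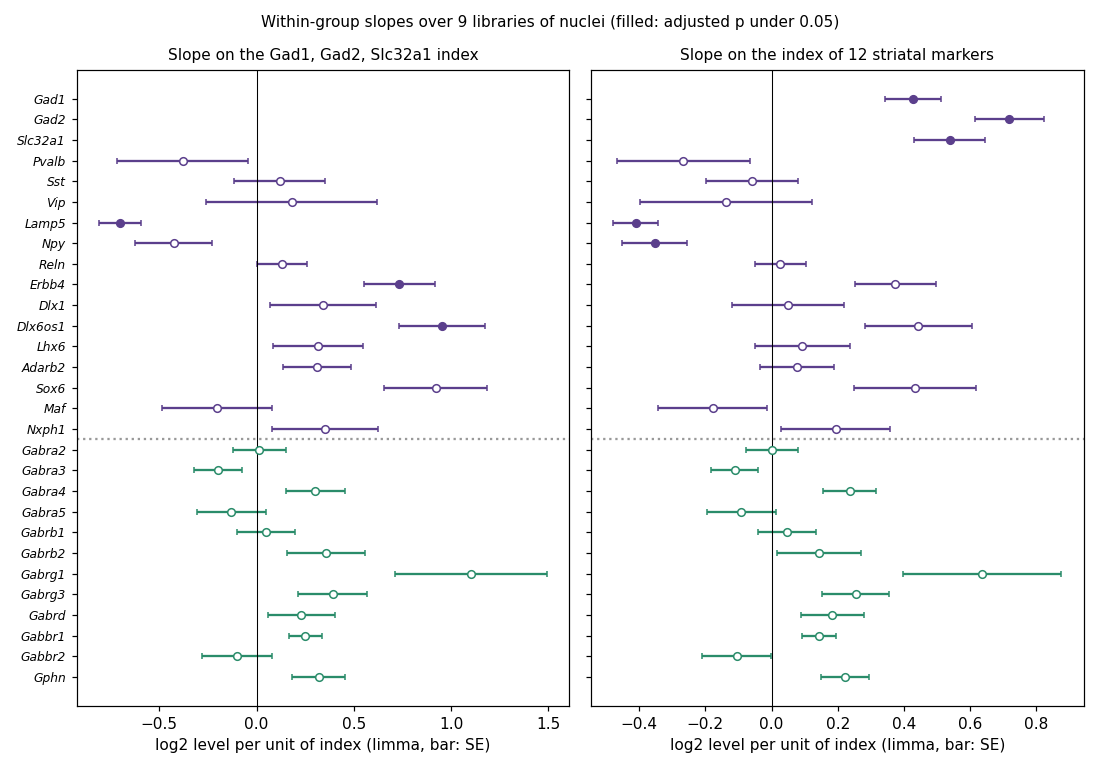
Slopes of the genes within groups over 9 libraries of nuclei, in log2 units per unit of the mean log2 level of Gad1, Gad2 and Slc32a1 (left, those 3 genes left out) and of 12 striatal markers (right). Points are limma estimates, bars the SE and filled points an adjusted p under 0.05; on the right Gad2 (0.72), Slc32a1 (0.54) and Gad1 (0.43) are filled above 0 and Lamp5 (-0.41) and Npy (-0.35) below 0.

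Of the other 14 identity genes, 3 had slopes that passed on the measure of Gad1, Gad2 and Slc32a1, beside 4.34% of all genes. Dlx6os1 had a slope of 0.95 ± 0.22 (adjusted p = 0.0332 by limma) and Erbb4 one of 0.73 ± 0.18 (adjusted p = 0.0398). Lamp5 ran the other way with -0.70 ± 0.11 (adjusted p = 0.0057). The slopes of Sst (0.12 ± 0.23), Vip (0.18 ± 0.44), Pvalb (-0.38 ± 0.34) and Lhx6 (0.31 ± 0.23) did not pass. With these SE over 9 libraries, that does not show that the 4 genes had no slope.

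Levels of striatal neuron markers moved across the same libraries. The sum of 12 such markers was 884, 725 and 1085 CPM in Het CRISPRa, 382, 771 and 1269 CPM in Het and 631, 678 and 1492 CPM in WT nuclei, although the tissue is labelled cortex. Drd2, a dopamine receptor of striatal projection neurons, was at 12.0 to 22.4 CPM in Het CRISPRa, 1.78 to 30.1 CPM in Het and 9.96 to 30.5 CPM in WT. The first Het library had the lowest striatal sum and the lowest Gad1, Gad2 and Slc32a1, and the third Het and the third WT libraries had the highest of each.

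On the mean log2 level of the 12 striatal markers, 5 of the 17 identity genes had slopes that passed, against 2169 of all genes (11.4%). Gad2 had a slope of 0.72 ± 0.10 (adjusted p = 0.0014), Slc32a1 one of 0.54 ± 0.11 (adjusted p = 0.0073) and Gad1 one of 0.43 ± 0.08 (adjusted p = 0.0071; all by limma). Lamp5 had a slope of -0.41 ± 0.07 (adjusted p = 0.0029) and Npy one of -0.35 ± 0.10 (adjusted p = 0.0317). The slopes of Dlx6os1 (0.44), Sox6 (0.43) and Erbb4 (0.37) were of similar size to that of Gad1 and did not pass. Their unadjusted limma p-values were 0.0161, 0.0339 and 0.0088 in that order. Those of Sst (-0.06), Vip (-0.14), Reln (0.03), Dlx1 (0.05), Lhx6 (0.09) and Adarb2 (0.08) did not pass either. The same held for Pvalb (-0.27), Maf (-0.18) and Nxph1 (0.19). The slopes that passed were thus above 0 for the 3 genes of GABA synthesis and loading and below 0 for the subclass markers Lamp5 and Npy. The part of any cell type in these slopes was not tested. All 5 calls rest on the third and the first Het library: without either, 0 of the 17 passed. They were lost too with the replicate number as a block, and Npy was lost without any 1 of the WT libraries.

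None of the 12 receptor genes passed on the striatal measure. The smallest adjusted p was that of Gphn (slope 0.22, adjusted p = 0.0634 by limma), followed by Gabra4 (0.24, adjusted p = 0.0708) and Gabbr1 (0.14, adjusted p = 0.0794). With the striatal measure as a covariate, none of the 29 genes passed in any comparison of groups. The Het minus WT values were then -0.37 for Gabrb2, -0.34 for Gabra5, -0.28 for Gabrg3 and -0.27 for Reln, and the Het CRISPRa minus WT value of Gabrb2 was -0.50. The part of striatal nuclei in the levels of Gad1, Gad2 and Slc32a1 was not tested.

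**Figure D4:**
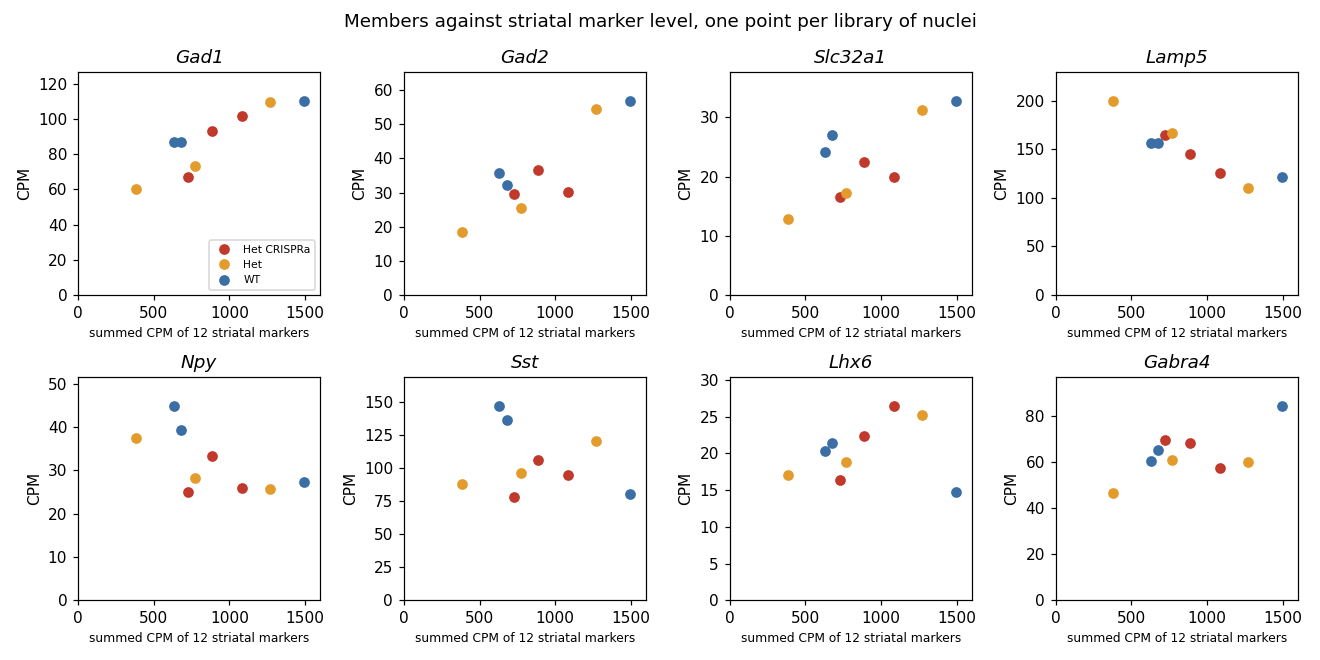
Levels of 8 genes, in CPM, against the summed CPM of 12 striatal markers, with 1 point per library of nuclei coloured by group (Het CRISPRa, Het, WT). Gad1, Gad2 and Slc32a1 are highest in the libraries with sums of 1269 and 1492 CPM, Lamp5 is highest in the library with 382 CPM, Gabra4 is lowest at 382 CPM and highest at 1492 CPM without a slope that passed, and Sst and Lhx6 show no such order.

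In Neuro2a cells, 7 of the 11 identity genes with values were at or near 0. Of the 18 genes with values, 7 reached the filter of 0.5 CPM in 6 libraries and were tested (Npy, Dlx1, Lhx6, Sox6, Gabrd, Gabbr1 and Gphn). Gad1, Gad2, Slc32a1, Vip, Lamp5, Reln, Adarb2, Gabra2, Gabra4 and Gabra5 had at most 0.316 CPM in any library, where 3 reads correspond to 0.143 to 0.193 CPM, and Gabrb1 had at most 0.659 CPM. These cells thus had too little RNA of the synthesis genes for a comparison at this depth.

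Of the 7 genes tested, 4 passed in CRISPRa minus VP64 only, with 2 higher and 2 lower. Over all 14398 genes, 15% passed, 10% higher and 5.02% lower, and the median change was 0.06. With the library set as a term in the fit, 6 of the 7 passed (39.5% of all genes), Dlx1 (adjusted p = 0.0315) and Gabrd (adjusted p = 0.0231) by limma as well. Without that term the higher genes were Npy and Gabbr1, and the lower ones Gphn and Sox6.

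Npy (ENSMUSG00000029819), which encodes neuropeptide Y, was at 46.2, 45.4, 40.1, 29.3, 20.5 and 29.6 CPM in the CRISPRa cultures, against 16.8, 21.2, 24.9, 16.6, 19.4 and 25.4 CPM in the VP64-only cultures. All 3 CRISPRa cultures of set 7 lay above every VP64-only culture, and 1 of set 8 lay among them. The mean level was 35.2 ± 10.3 CPM with CRISPRa and 20.7 ± 3.83 CPM with VP64 only (SD, n = 6 each), a log2 change of 0.71 ± 0.19 (SE; adjusted p = 0.0221 by limma, and exact two-sided permutation p = 0.0130).

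The size of the Npy change differed between the library sets. In set 7 Npy averaged 43.9 ± 3.30 CPM with CRISPRa against 21.0 ± 4.02 CPM with VP64 only (SD, n = 3 each), a log2 change of 1.06. In set 8 it averaged 26.5 ± 5.13 CPM with CRISPRa against 20.5 ± 4.51 CPM with VP64 only, a log2 change of 0.37 that did not pass alone (adjusted p = 0.0778 by limma). Set 8 minus set 7 gave a difference of -0.70 ± 0.21 (adjusted p = 0.0214 by limma), and Npy was the 1 gene of the 7 with such a difference, against 21.8% of all genes. That call was lost without CRISPRa replicate 2 or 5 or VP64-only replicate 1 or 6. The overall Npy call was lost in set 8 alone and without CRISPRa replicate 1, 2 or 3 or VP64-only replicate 1.

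Gabbr1 (ENSMUSG00000024462), the GABA-B subunit that binds GABA, was at 58.9, 52.7, 55.3, 61.1, 52.9 and 57.6 CPM in CRISPRa, against 45.3, 49.3, 48.4, 42.5, 48.6 and 52.3 CPM in VP64 only. All 6 CRISPRa cultures lay above all 6 VP64-only cultures, a separation that 8.75% of all genes had in either direction. The log2 change was 0.24 ± 0.06 (SE; adjusted p = 0.0195 by limma; exact two-sided permutation p = 0.00216, the smallest that 6 against 6 can give). The change was 0.22 in set 7 and 0.26 in set 8. With median-of-ratios scaling of the libraries it was 0.18 and did not pass (adjusted p = 0.0804), and with quantile normalization 0.19 (adjusted p = 0.0696). In the authors' deposited table Gabbr1 had 0.18 with an adjusted p of 0.0630.

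Gphn (ENSMUSG00000047454), which encodes gephyrin and also acts in molybdenum cofactor synthesis, was at 46.7, 50.002, 54.7, 47.8, 45.7 and 46.8 CPM in CRISPRa, against 58.9, 57.7, 60.6, 58.5, 53.8 and 56.9 CPM in VP64 only. Only the third CRISPRa culture reached into the VP64-only range. The mean level was 48.6 ± 3.33 CPM with CRISPRa and 57.7 ± 2.28 CPM with VP64 only (SD, n = 6 each), a log2 change of -0.25 ± 0.06 (SE; adjusted p = 0.010005 by limma; exact two-sided permutation p = 0.0043). It fell by 0.23 on the log2 scale in set 7 and by 0.27 in set 8, and it passed in all 22 alternatives, with adjusted p-values of 0.00043 to 0.0274.

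Sox6 (ENSMUSG00000051910), a transcription factor of medial eminence interneurons that is also found outside the nervous system, was at 61.9, 59.0, 65.2, 54.5, 51.1 and 55.9 CPM in CRISPRa, against 80.2, 83.7, 73.8, 60.4, 70.1 and 60.8 CPM in VP64 only. Both groups were lower in set 8, and within each set the CRISPRa cultures all lay under the VP64-only cultures. The log2 change was -0.29 ± 0.09 (SE; adjusted p = 0.0426 by limma; exact two-sided permutation p = 0.0152), with -0.35 in set 7 and -0.24 in set 8. It passed in 12 of 22 alternatives. Those in which it did not pass were no filter on low values (adjusted p = 0.0835) and the omission of CRISPRa replicate 1, 2, 4, 5 or 6 or of VP64-only replicate 1, 2, 3 or 5.

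The other 3 genes did not pass without the set term. Dlx1 was at 9.98, 10.8, 11.1, 12.2, 13.05 and 13.3 CPM in CRISPRa, against 14.0, 14.1, 14.1, 13.3, 13.5 and 13.2 CPM in VP64 only (log2 change -0.22, adjusted p = 0.0993 by limma). Its set 7 cultures were apart, with 10.7 ± 0.603 CPM for CRISPRa and 14.1 ± 0.0594 CPM for VP64 only (SD, n = 3 each), and passed in set 7 alone with -0.39 (adjusted p = 0.0058 by limma; 45.9% of all genes passed there), while in set 8 the value was -0.05. Dlx1 also passed with quantile normalization (-0.32, adjusted p = 0.0394). The difference between the sets did not pass (0.34, adjusted p = 0.0719 by limma), except with median-of-ratios scaling (0.39, adjusted p = 0.0402).

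Gabrd was at 1.08, 1.02, 1.22, 1.76, 0.773 and 1.60 CPM in CRISPRa, against 0.187, 0.586, 0.363, 0.477, 1.49 and 0.885 CPM in VP64 only, with a log2 change of 0.64 ± 0.24 (adjusted p = 0.0910 by limma). It passed in set 7 alone, with 0.89 (adjusted p = 0.0085 by limma), and without VP64-only replicate 5 (0.81, adjusted p = 0.0233), and some of its values stand near the level of 3 reads. Lhx6, the homeodomain factor of medial eminence cells, had 2.38 to 4.54 CPM with CRISPRa and 2.87 to 5.49 CPM with VP64 only (log2 change -0.22, adjusted p = 0.476 by limma). Lhx6 was higher in set 8 than in set 7 in both groups.

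**Figure D5:**
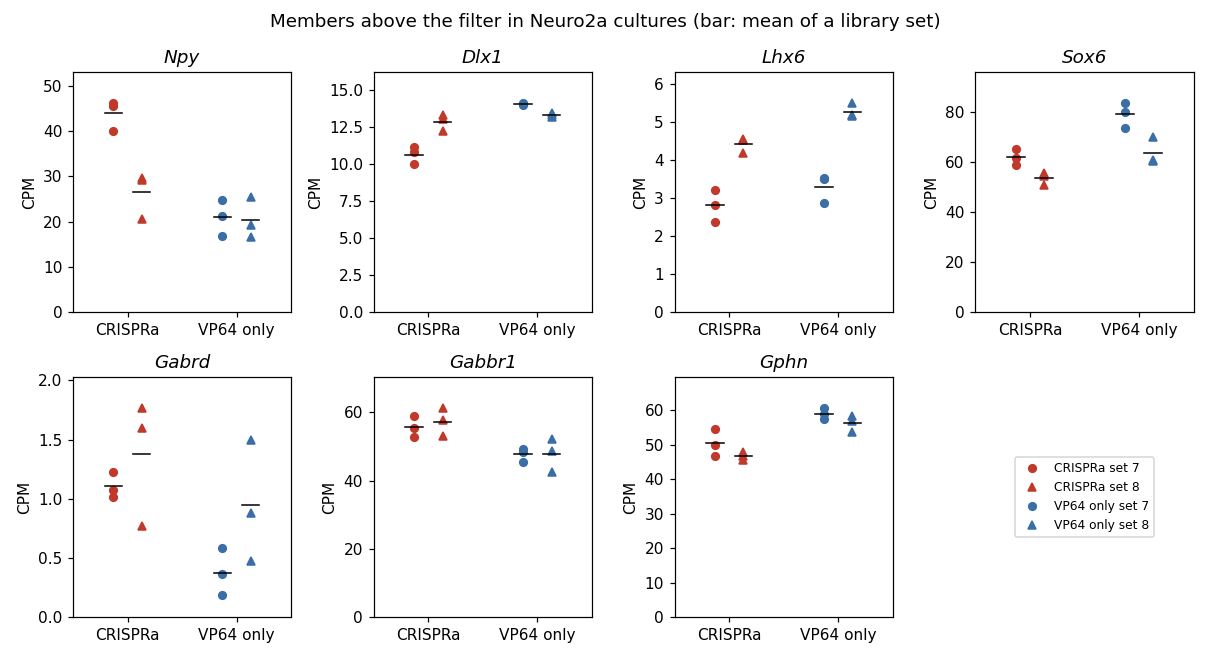
Levels in CPM of the 7 genes above the filter in Neuro2a cultures given CRISPRa (left) or VP64 only (right), with axes from 0. Circles are library set 7, triangles set 8 and bars the mean of 3 cultures; with CRISPRa the mean of Npy is 43.9 CPM in set 7 but 26.5 CPM in set 8, and with VP64 only 21.0 and 20.5 CPM in the same sets, while Gabbr1 and Gphn keep their distance between groups in both sets.

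Of 12 further interneuron genes tested in Neuro2a, 1 passed higher and 4 passed lower, beside 10% and 5.02% of all genes. Of the 12, 7 had estimates above 0, beside 59.4% of all genes, with a median log2 change of 0.08 beside 0.06 over all genes. The lower ones were Satb1, a chromatin organiser (64.1 CPM with CRISPRa and 87.0 CPM with VP64 only, log2 change -0.46), Htr3a, a serotonin-gated channel (704 CPM with CRISPRa and 914 CPM with VP64 only, -0.38), the transcription factor Sp9 (-0.31) and the cannabinoid receptor Cnr1 (-0.25). The higher one, named after its value was seen, was the transcription factor Zeb2, with 117 CPM for CRISPRa and 101 CPM for VP64 only (0.21). Of 14 genes of inhibitory synapses and GABA metabolism tested, 1 passed higher and 0 lower. It was Insyn1, an inhibitory synapse protein, with 15.3 CPM for CRISPRa and 10.3 CPM for VP64 only (log2 change 0.55, adjusted p = 0.0223 by limma). In the authors' deposited DESeq2 table for Neuro2a, 10 members were listed, of which Gad2, Vip and Gabrb1 had no adjusted p. Of the others, 4 had an adjusted p under 0.05. They were Npy (0.70), Dlx1 (-0.28), Gphn (-0.31) and Sox6 (-0.36). The share of all genes that passed in that table was not computed, so this count has no background beside it.

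Npy, Gabbr1, Gphn and Sox6, the 4 genes that passed in Neuro2a, did not pass in nuclei. Their Het CRISPRa minus Het values in nuclei were -0.11, 0.02, -0.16 and 0.31 in that order, with a lowest adjusted p of 0.810 by limma over the 29 genes. The difference between the systems was not tested.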

How the data were processed

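PolyA RNA sequencing libraries of 9 samples of sorted cortical nuclei and 12 Neuro2a cultures were analysed. Per the file headers, the authors deposited CPM (counts per M reads) for each library, and tables with log2 fold change, DESeq2 Wald score, p-value and adjusted p-value for each comparison. The submitters' processing notes list STAR 2.7.8a, featureCounts, DESeq2 1.44, R 4.4, mm39 and GRCm39 with no role or order. The tool that made the CPM, the strand setting and the treatment of multiply mapped reads are not given in the sources used here. Reads counted on a library total make one abundant gene lower the CPM of others. The depth was read from the commonest value above 0, taken as 1 read. Of the values, 79.9 to 82.4% in nuclei and 70.8 to 73.2% in Neuro2a were whole reads to within 0.01, so no count test was run.

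Computed here were limma 3.58.1 fits in R 4.3.3 (lmFit, eBayes with trend) on log2(CPM + 0.5). Genes had to reach 0.5 CPM in 3 libraries of nuclei or 6 Neuro2a libraries, and 2 transgene features were left out. The nuclei of all 9 mice entered 1 fit. Adjustment was by Benjamini-Hochberg, over 18967 genes in nuclei and 14398 in Neuro2a. Exact two-sided permutation tests used mean CPM. Floors of 3 reads cover counting error only. The fit was tested on simulated data, where 88% of genes with a change of 2-fold passed in Neuro2a and 65% in Het minus WT. The simulation changed 200 genes, all with a mean log2(CPM + 0.5) above 1, and drew independent noise for each gene. It held no differences shared by libraries, such as library sets, so these shares need not hold for the real data or for low genes.

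Same-numbered Neuro2a libraries had correlations of 0.305 to 0.499 between their deviations from the group means. Those of other numbers in the same set had 0.284 to 0.505, so the numbers pair no libraries within a set. Libraries of different sets had -0.513 to -0.294. In nuclei same-numbered libraries had -0.110 to 0.418 and those of other numbers -0.427 to 0.243. The highest were Het 3 with WT 3 (0.418) and Het 1 with WT 1 (0.337). With ranges that overlap, these values do not show whether the numbers pair libraries of nuclei. The genes and lists were chosen with earlier results of these data known. All 29 genes are named, and of other lists the 4 genes with the smallest p. Slopes on, and covariate fits with, the 12 striatal markers were added after seeing the data. The alternatives were other pseudocounts, filters, scalings, a replicate block, library sets and the omission of each library.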

Additional observations from a re-analysis of the deposited data

Results flagged for a closer look

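The Npy change in Neuro2a differed between library sets. It was 1.06 on the log2 scale in set 7 and 0.37 in set 8, and the difference of set 8 minus set 7 was -0.70 (adjusted p = 0.0214 by limma). Such a difference passed for 21.8% of all genes, so it is not particular to Npy. It passed for Npy in 10 of 14 alternatives. With CRISPRa, all 3 set 7 cultures (46.2, 45.4 and 40.1 CPM) lay above all 3 set 8 cultures (29.3, 20.5 and 29.6 CPM), while the VP64-only cultures of both sets overlapped. The part of the library set in the change was not tested beyond this difference. Among 14 groups of Neuro2a values, 0 had a single culture far from the others, by the gap at either end against the range. The range took both library sets together, so a difference between sets could hide such a culture.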

How the results depend on the processing

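In nuclei the count of genes that passed was 0 in each comparison under every alternative run, and of the Neuro2a calls, 4 in the fit as reported, the count lay between 2 and 4 when 1 culture was left out. It was 2 without CRISPRa replicate 1 or 2 or VP64-only replicate 1. The replicate block left 4 Neuro2a calls, the library set as a term and set 7 alone gave 6 each, and set 8 alone, no filter and median-of-ratios scaling gave 3 each. Receptor genes with a slope on Gad1, Gad2 and Slc32a1 numbered 0, and 0 to 1 when 1 library was left out. Identity genes with a striatal slope numbered 5, 0 with the replicate block, and 0 to 6 when 1 library was left out. Neuro2a genes with a difference between sets numbered 1, 2 with median-of-ratios scaling (Dlx1 as the second), and 0 to 1 when 1 culture was left out. Over all Neuro2a genes, the library set as a term raised the calls to 5685, against 2166. Each group had 3 cultures in each set. The fit without the term and the permutation tests count differences between the sets as spread. How much of the rise in calls this makes up was not tested. Median-of-ratios scaling gave 1062 higher and 1104 lower calls over all Neuro2a genes, against 1443 higher and 723 lower without it. On simulated data with 3 mice a group, 64% of 2-fold and 20% of 1.5-fold changes passed in Het CRISPRa minus Het, so that most changes under 2-fold in nuclei were not detectable. In nuclei, 19 alternatives gave 517 values of genes that did not pass in each comparison, and the sign changed in 32 for Het minus WT, 44 for Het CRISPRa minus Het and 31 for Het CRISPRa minus WT. At most 9 of 29 signs turned under 1 alternative, in Het CRISPRa minus Het without Het replicate 1 or with the striatal covariate, and in Het CRISPRa minus WT without Het CRISPRa replicate 2.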
